A study of Homo sapiens with 84 samples.

Results

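The integrin subunit genes that build receptors outside the hemidesmosome were described in 2 squamous carcinoma cell lines. The 8 genes ITGA2, ITGA3, ITGA5, ITGAV, ITGB1, ITGB5, ITGB6, and ITGB8 were chosen by symbol from the 58395 genes counted, and all 8 were matched to 1 identifier each. The Kyse30 line was established from an esophageal squamous tumor and the FaDu line from a pharyngeal one, and each stems from a single tumor. All cells were deprived of serum. Controls without treatment were taken at 0, 6, and 72 h, and the treatments lasted 6 or 72 h with EGFlow (1.8 nM EGF), EGFhigh (9 nM EGF), EpEX (the extracellular domain of EpCAM fused to an immunoglobulin Fc part), EGFhigh + EpEX, or Fc alone, which is the control of EpEX. Kyse30 had 43 libraries over 13 conditions (n = 3 or 4), and FaDu replicates 3 and 4 had 20 libraries over 13 conditions (n = 1 or 2). The labels do not say whether replicates came from separate cultures, so p-values measure only the spread between these libraries, which may be technical.

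Integrins are receptors made of an alpha and a beta subunit that tie the extracellular matrix to the actin cytoskeleton through talin, vinculin, and other linker proteins. ITGB1 is the shared beta subunit of the collagen receptor with ITGA2, the laminin receptor with ITGA3, and the fibronectin receptor with ITGA5. ITGAV pairs with ITGB1, ITGB5, ITGB6, or ITGB8, and these receptors bind vitronectin, fibronectin, or latent TGF-beta, with ITGB6 known for its restriction to epithelia. In contrast, ITGA6 with ITGB4 forms the laminin receptor of the hemidesmosome, which is anchored to keratins.

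The Kyse30 libraries held 1944948 to 11759799 counts on genes, with a median of 6304338. For FaDu replicates 3 and 4, totals were 6217938 to 12442349, with a median of 9259762. A floor of 3 counts corresponded to 1.54 CPM (counts scaled to a common library size, here by TMM) in the shallowest Kyse30 library and to 0.482 CPM in the shallowest FaDu library. Such floors cover counting error only. In Kyse30, 6 epithelial markers (EPCAM, CDH1, KRT5, KRT14, TP63, SFN) summed to 778 to 2631 CPM, with KRT5 (median 2.07 CPM) and KRT14 (median 0.666 CPM) near the floor. They summed to 932 to 1877 CPM in FaDu replicates 3 and 4. Fibroblast markers summed to 9.34 to 43.8 CPM in Kyse30 and 7.07 to 15.6 CPM in FaDu replicates 3 and 4, mostly COL1A1, while in both sets leukocyte markers did not exceed 2.5 CPM and endothelial markers 9.01 CPM. FaDu replicates 1 and 2 stood apart. Across their 21 libraries the epithelial markers ranged from 65.8 to 9452 CPM and the fibroblast markers from 3.33 to 3678 CPM, and they were used only where stated.

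Gene positions are those of GENCODE 29 on GRCh38. The alpha subunit genes were ITGA2 (ENSG00000164171) on chromosome 5 from 52989326 to 53094779, ITGA3 (ENSG00000005884) on chromosome 17 from 50055968 to 50090481, ITGA5 (ENSG00000161638) on chromosome 12 from 54395261 to 54419460, and ITGAV (ENSG00000138448) on chromosome 2 from 186590065 to 186680901. The beta subunit genes were ITGB1 (ENSG00000150093) on chromosome 10 from 32900319 to 33005792, ITGB5 (ENSG00000082781) on chromosome 3 from 124761948 to 124901418, ITGB6 (ENSG00000115221) on chromosome 2 from 160099666 to 160200313, and ITGB8 (ENSG00000105855) on chromosome 7 from 20330702 to 20415754. ITGA5, ITGAV, ITGB1, and ITGB8 shared 42 to 203 exon bases with a gene on the opposite strand. The strand setting of the counting is not given in the sources used here, so reads of such partners may not have been kept apart. ITGB6 shared 966 exon bases with AC092153.1 on its own strand, and its counts are uncertain there.

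Promoter windows of RefSeq (GRCh38.p14, 250 bases before to 50 after a start) were found for 7 of the 8 genes, with 11 windows in all, and none was given for ITGA3. The 250 bases before the start are shown for ITGA2 and ITGB1, because these subunits were higher under EGF at 6 h in both cell lines. Capitals mark the letters GGGCGG (a box bound by SP1) and GGAATG (a box bound by TEAD factors), read on both strands. ITGA2 lies on the forward strand (chr5:52989102-52989351) and ITGB1 on the reverse strand (chr10:32958231-32958480).
ITGA2: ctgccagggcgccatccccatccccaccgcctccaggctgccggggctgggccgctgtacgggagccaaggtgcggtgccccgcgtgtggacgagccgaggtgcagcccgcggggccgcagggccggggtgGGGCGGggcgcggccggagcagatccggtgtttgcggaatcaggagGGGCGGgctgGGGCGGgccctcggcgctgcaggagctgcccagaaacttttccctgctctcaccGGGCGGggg
ITGB1: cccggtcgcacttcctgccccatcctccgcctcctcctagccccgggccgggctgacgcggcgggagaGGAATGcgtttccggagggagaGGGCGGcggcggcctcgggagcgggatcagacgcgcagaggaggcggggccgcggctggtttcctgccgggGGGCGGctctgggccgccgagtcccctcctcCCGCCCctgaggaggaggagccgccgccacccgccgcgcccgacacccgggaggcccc
The ITGA2 window shown held 4 matches to GGGCGG and none to GGAATG. The ITGB1 window held 3 matches to GGGCGG and 1 to GGAATG, and a second ITGB1 window held none. Matches did not overlap each other. GGGCGG was found in 7 of the 11 windows (5 of 7 genes) and in 45.0% of all 35116 promoter windows, and GGAATG in 2 of 11 (ITGB1 and ITGA5) and 14.0% of all windows. The letters TGANTCA, a site of AP-1, were in 1 of 11 windows (ITGA5) and in 7.71% of all windows. ITGB6 and ITGAV held none of these letters.

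In Kyse30, the 8 genes differed widely in level and in how far they varied over the 13 conditions. Since only the 3′ end of each transcript was read, a count does not scale with transcript length and CPM values of different genes were compared as such. Other differences between genes in how reads were counted were not corrected for. The order below is therefore one of counts and may differ from that of transcript numbers. ITGA2 was the highest at 179 to 722 CPM over the 43 libraries (median 352 CPM), followed by ITGA3 (83.9 to 300 CPM, median 136 CPM), ITGB5 (58.1 to 238 CPM, median 117 CPM), and ITGB1 (68.7 to 174 CPM, median 105 CPM). The partners of latent TGF-beta receptors were lower, with medians of 79.6 CPM for ITGB6, 61.2 CPM for ITGAV, and 58.9 CPM for ITGB8. ITGA5, the fibronectin receptor subunit, was lowest at 2.67 to 20.6 CPM, which stood for 12 to 177 counts in a library. Ranges of neighbours in this order overlapped.

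**Figure D1:**
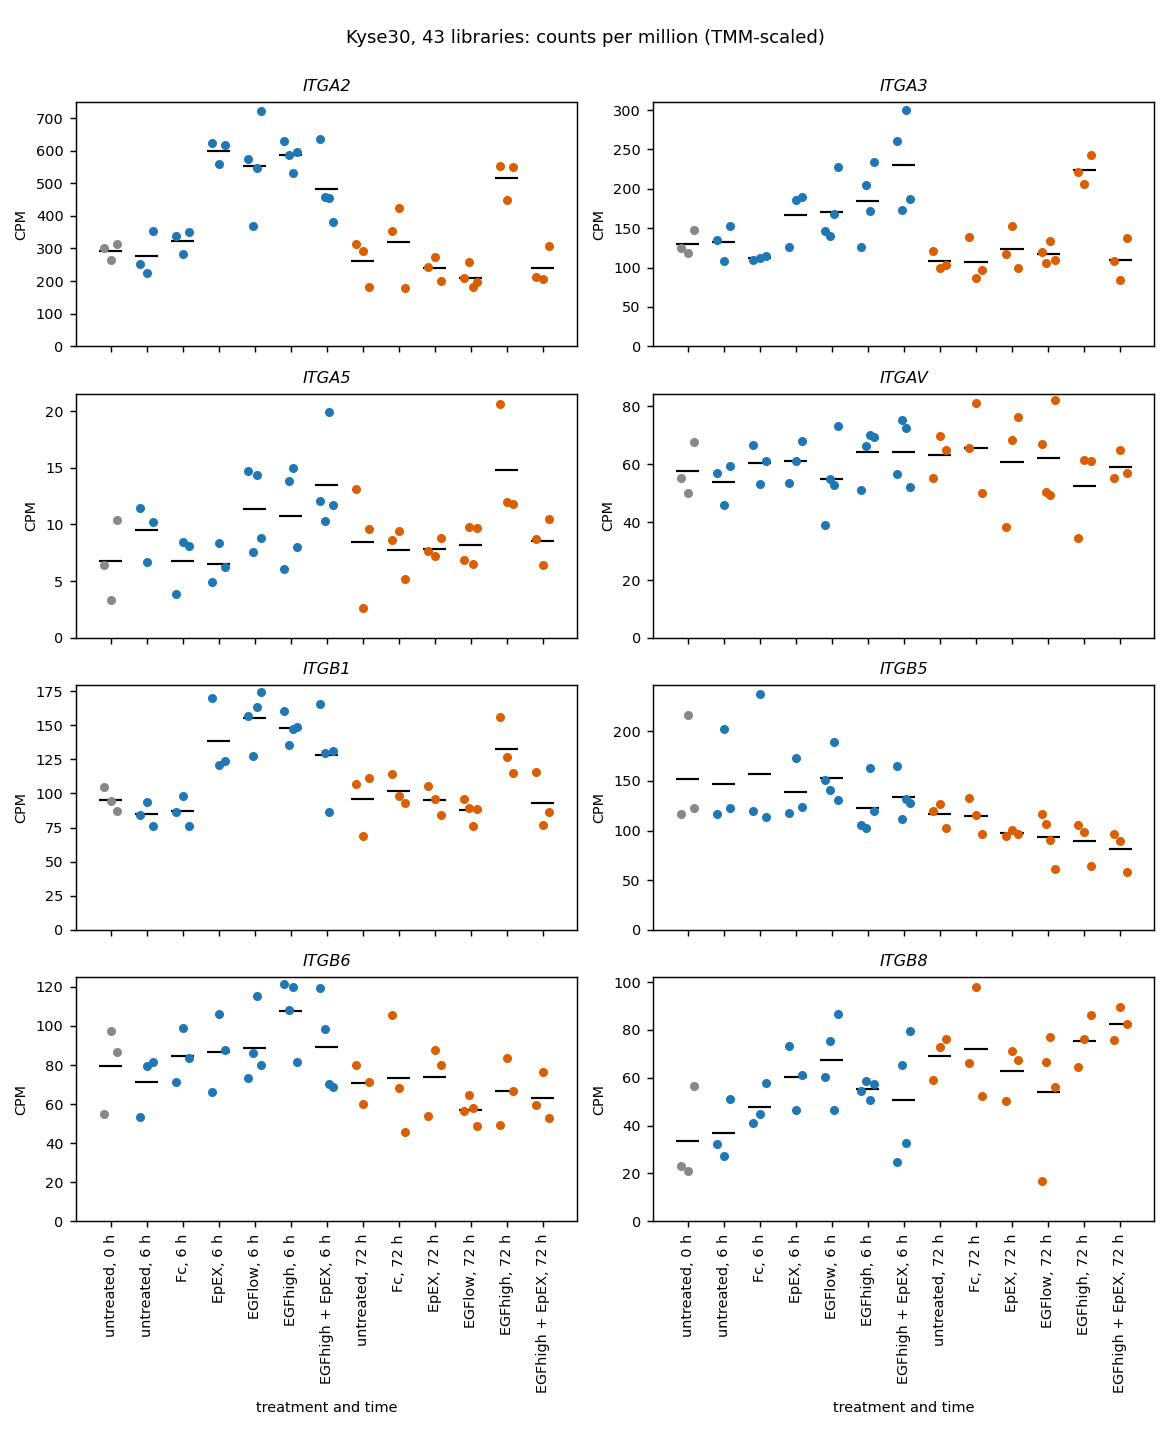
Levels of the 8 integrin genes in Kyse30 in CPM (vertical axes, from 0) for each treatment and time (horizontal axis). Each point is 1 of 43 libraries, grey at 0 h, blue at 6 h, and orange at 72 h, and black lines are means. ITGA2 stood at 369 to 722 CPM in the EpEX and EGF libraries of 6 h and at 447 to 551 CPM under EGFhigh at 72 h, while ITGAV remained between 34.6 and 82.0 CPM in all 43 libraries.

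Condition means of ITGA2 spanned 2.84-fold in Kyse30, those of ITGB8 2.46-fold, ITGA5 2.28-fold, ITGA3 2.14-fold, ITGB5 1.93-fold, ITGB6 1.89-fold, and ITGB1 1.84-fold. ITGAV, which can pair with each of the 4 beta subunits here, spanned 1.25-fold. Within conditions, the coefficient of variation was 20.6% for ITGA2, 20.02% for ITGAV, 15.9% for ITGB1, and 35.5% for ITGA5. The span of ITGAV over conditions was thus close to the spread of libraries within a condition.

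The order of conditions was similar for ITGA2 and ITGB1. ITGA2 was highest under EpEX at 6 h (600 ± 34.8 CPM, SD, n = 3), EGFhigh at 6 h (586 ± 41.1 CPM, n = 4), EGFlow at 6 h (553 ± 145 CPM, n = 4), EGFhigh at 72 h (517 ± 60.1 CPM, n = 3), and EGFhigh + EpEX at 6 h (482 ± 107 CPM, n = 4). Every library of these 5 conditions (369 CPM or more) lay above all libraries of Fc at 6 h, which was next (324 ± 36.0 CPM, n = 3), but Fc at 72 h reached 423 CPM in replicate 2 and overlapped them. The other conditions ranged from 319 ± 126 CPM (Fc, 72 h, n = 3) over 294 ± 25.7 CPM (0 h, n = 3), 276 ± 67.3 CPM (untreated, 6 h, n = 3), 263 ± 69.8 CPM (untreated, 72 h, n = 3), 241 ± 56.5 CPM (EGFhigh + EpEX, 72 h, n = 3), and 239 ± 37.3 CPM (EpEX, 72 h, n = 3) to 211 ± 33.1 CPM (EGFlow, 72 h, n = 4). Neighbours within the upper and within the lower group overlapped.

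ITGB1 was likewise highest under EGFlow at 6 h (155 ± 20.01 CPM, n = 4), EGFhigh at 6 h (148 ± 10.1 CPM, n = 4), EpEX at 6 h (138 ± 27.3 CPM, n = 3), EGFhigh at 72 h (133 ± 21.3 CPM, n = 3), and EGFhigh + EpEX at 6 h (128 ± 32.4 CPM, n = 4). Its remaining 8 conditions lay between 84.7 ± 9.07 CPM (untreated, 6 h, n = 3) and 102 ± 11.03 CPM (Fc, 72 h, n = 3), and all neighbours in the order overlapped. ITGA3 was highest under EGFhigh + EpEX at 6 h (230 ± 60.3 CPM, n = 4) and EGFhigh at 72 h (224 ± 18.5 CPM, n = 3), followed by EGFhigh (184 ± 46.2 CPM, n = 4), EGFlow (171 ± 39.8 CPM, n = 4), and EpEX at 6 h (167 ± 35.5 CPM, n = 3). Its other conditions lay between 108 ± 27.1 CPM (Fc, 72 h, n = 3) and 132 ± 22.5 CPM (untreated, 6 h, n = 3), again with overlap between neighbours.

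The members without a called difference from a control in Kyse30 were ordered less clearly, and all neighbouring conditions overlapped. ITGB6 was highest under EGFhigh at 6 h (108 ± 18.5 CPM, n = 4) and lowest under EGFlow at 72 h (57.0 ± 6.56 CPM, n = 4). ITGB5 was highest in Fc at 6 h (157 ± 70.1 CPM, n = 3) and lowest in EGFhigh + EpEX at 72 h (81.3 ± 20.4 CPM, n = 3), and its 6 conditions of 72 h were the 6 lowest. ITGB8 ran the other way, from 33.6 ± 19.9 CPM at 0 h (n = 3) to 82.7 ± 6.91 CPM in EGFhigh + EpEX at 72 h (n = 3). ITGA5 ranged from 6.50 ± 1.71 CPM (EpEX, 6 h, n = 3) to 14.8 ± 5.05 CPM (EGFhigh, 72 h, n = 3), and ITGAV from 52.5 ± 15.4 CPM (EGFhigh, 72 h, n = 3) to 65.6 ± 15.6 CPM (Fc, 72 h, n = 3).

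EGF was compared with untreated cells of the same time point to ask how early and lasting activation of EGFR changed these genes. A gene was called where the adjusted p of edgeR's quasi-likelihood test (Benjamini-Hochberg over all genes tested) did not exceed 0.05 and the log2FC was beyond 0.5 in either direction. After 6 h in Kyse30, the collagen receptor subunit ITGA2 and its partner ITGB1 rose under both doses of EGF. Untreated libraries had 225, 251, and 352 CPM of ITGA2, EGFlow libraries had 369, 546, 574, and 722 CPM, and EGFhigh libraries 530, 587, 596, and 629 CPM. Every library with EGF thus exceeded every untreated one. Here and in the later comparisons, the share of all genes without overlap between groups is not given. Statements on overlap therefore only describe the libraries of the genes named. The difference was 1.00 ± 0.23 (log2FC ± SE, adjusted p = 0.0173) for EGFlow and 1.09 ± 0.23 (adjusted p = 0.00570) for EGFhigh, the latter a 2.12-fold higher level.

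For ITGB1, untreated libraries had 75.9, 84.1, and 94.0 CPM, EGFlow libraries 127, 157, 163, and 174 CPM, and EGFhigh libraries 136, 147, 148, and 160 CPM, again without overlap. Here the log2FC was 0.88 ± 0.19 (adjusted p = 0.0129) for EGFlow and 0.80 ± 0.19 (adjusted p = 0.0145) for EGFhigh. Both comparisons used the same untreated libraries. Hence, 2 of 8 integrin genes passed for each dose, compared with 1.50% of all 15350 genes for EGFlow and 2.55% for EGFhigh. The median log2FC of the 8 genes was 0.34 for EGFlow and 0.54 for EGFhigh, beside -0.04 and -0.05 over all genes.

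Of the other 6 genes, ITGB8 was 0.87 ± 0.35 higher on the log2 scale for EGFlow (adjusted p = 0.238), and for EGFhigh ITGA3 was 0.48 ± 0.22 (adjusted p = 0.260) and ITGB6 0.59 ± 0.25 higher (adjusted p = 0.232), none of which passed. ITGB8 passed for EGFlow without a filter on low counts (0.90, adjusted p = 0.0371), and ITGA3 for EGFhigh with untreated and Fc libraries together as control (0.60, adjusted p = 0.0289). The remaining log2FC values of both doses lay between -0.26 and 0.59. For EGFhigh against EGFlow at 6 h no member passed, with log2FC values of the 8 genes from -0.31 to 0.28, and no gene of the whole table was called by edgeR or DESeq2 (435 genes at an unadjusted p under 0.05).

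Some calls at 6 h were lost when a single library was left out. Such fits called 20 to 264 genes in all for EGFlow, compared with 230 in the full fit. For EGFhigh they called 116 to 327 genes, compared with 391. Without untreated replicate 3, ITGA2 no longer passed for EGFlow (0.87, adjusted p = 0.105) or EGFhigh (0.96, adjusted p = 0.0552), and for EGFlow the same held without untreated replicate 1 (0.95, adjusted p = 0.0951) or EGFlow replicate 4 (0.85, adjusted p = 0.0710). ITGB1 was lost for EGFlow without untreated replicate 1 (0.88, adjusted p = 0.0571) or 4 (0.80, adjusted p = 0.109), and for EGFhigh without the same libraries (0.81, adjusted p = 0.0610, and 0.73, adjusted p = 0.109).

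EpEX, which can bind EGFR, was compared with Fc. ITGA2 had 560, 617, and 623 CPM under EpEX at 6 h and 283, 337, and 352 CPM under Fc, so groups did not overlap. Its log2FC was 0.89 ± 0.24, but it did not pass the adjustment over all genes (unadjusted p = 0.000618, adjusted p = 0.133). ITGB1 behaved similarly, with 121, 124, and 170 CPM against 76.0, 86.3, and 98.5 CPM and a log2FC of 0.67 ± 0.20 (adjusted p = 0.210), and ITGA3 was 0.57 ± 0.23 higher (adjusted p = 0.414). None of 8 members was called, in a comparison where only 0.0261% of all genes (4 of 15350) passed. The call depended on the control and the tool. ITGA2 passed with DESeq2 (adjusted p = 0.0428), without a filter on low counts (adjusted p = 0.0311), and with untreated and Fc libraries together as control (log2FC 1.00, adjusted p = 0.00919), and in the last case so did ITGB1 (0.69, adjusted p = 0.0354). With the replicate number as a block, 48 genes passed and still no member.

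Under EGFhigh + EpEX at 6 h, the laminin receptor subunit ITGA3 was the member called, as 1 of 8 genes beside 4.52% of all genes. It had 173, 188, 261, and 300 CPM, compared with 110, 112, and 115 CPM under Fc, without overlap (log2FC 1.04 ± 0.22, adjusted p = 0.00373, 2.05-fold). ITGA2 was 0.57 ± 0.23 higher (adjusted p = 0.136), ITGA5 0.99 ± 0.43 (adjusted p = 0.184), and ITGB1 0.56 ± 0.19 (adjusted p = 0.0789). With the replicate number as a block, ITGB1 passed as well (0.59, adjusted p = 0.0268), and 1091 instead of 694 genes were called. ITGB1 also passed without EGFhigh + EpEX replicate 3 (0.71, adjusted p = 0.0262) and with DESeq2 (0.55, adjusted p = 0.0304). With untreated and Fc libraries together as control, both ITGB1 (0.58, adjusted p = 0.0141) and ITGA2 (0.68, adjusted p = 0.0163) passed. EGFhigh + EpEX did not differ from EGFhigh alone at 6 h beyond the spread in any member, with log2FC values from -0.28 to 0.32. No gene of the table was called there by edgeR or DESeq2 (577 at an unadjusted p under 0.05).

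**Figure D2:**
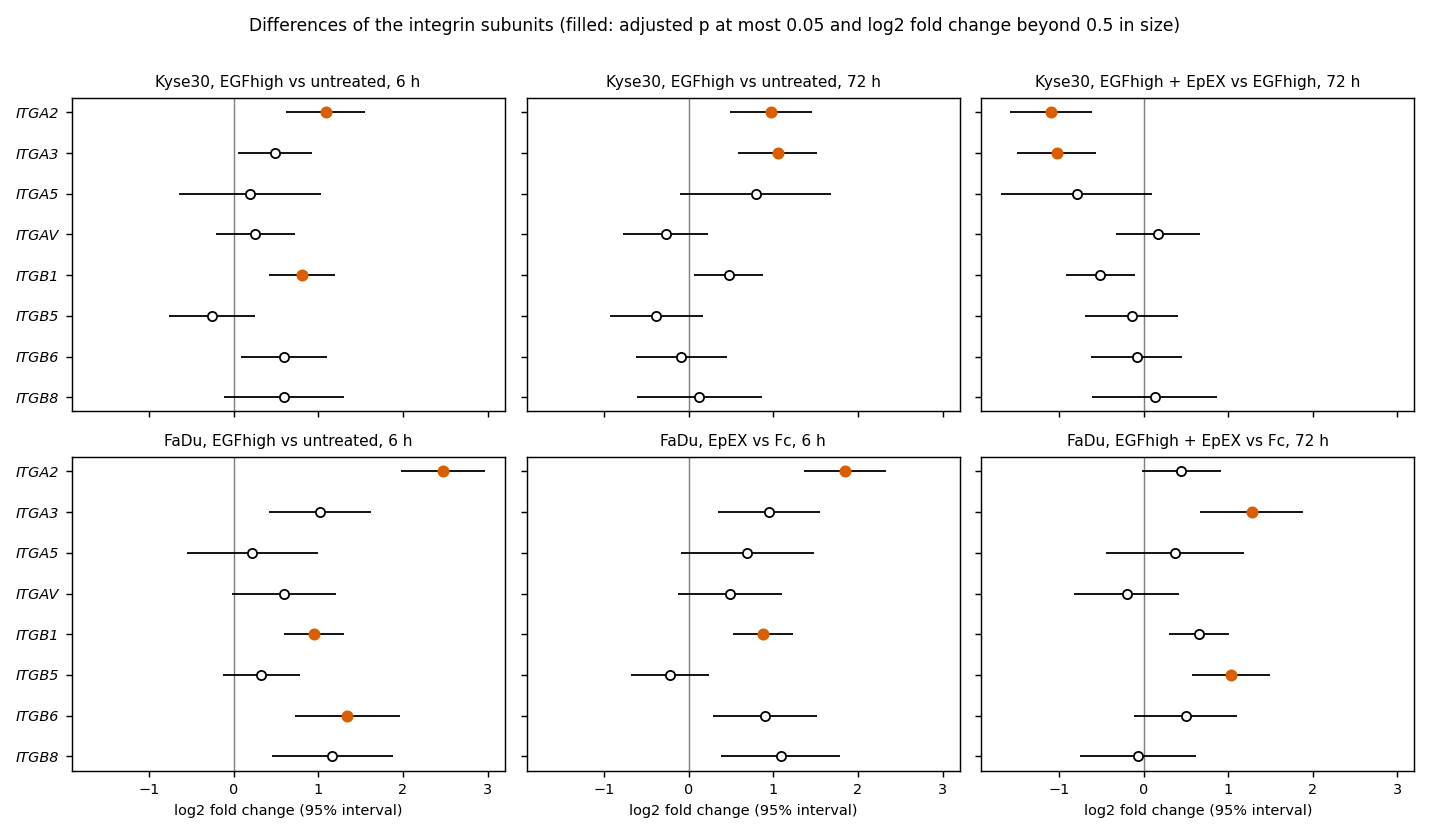
Differences of the 8 integrin genes as log2 fold changes (horizontal axis) with 95% intervals in 6 comparisons, 3 in Kyse30 (top) and 3 in FaDu replicates 3 and 4 (bottom). Filled points were called by edgeR (adjusted p up to 0.05, log2FC beyond 0.5 in either direction). ITGA2 lay at 1.09 and 0.97 under EGFhigh in Kyse30 at 6 and 72 h, at -1.10 for EGFhigh + EpEX against EGFhigh, and at 2.47 in FaDu cells at 6 h.

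At 72 h, ITGA2 and ITGA3 were higher under EGFhigh than in untreated Kyse30 cells. ITGA2 had 447, 551, and 551 CPM under EGFhigh and 183, 293, and 313 CPM in untreated cells. ITGA3 had 206, 222, and 243 CPM compared with 99.0, 103, and 122 CPM. Both genes were without overlap between groups, and their log2FC values were 0.97 ± 0.24 (adjusted p = 0.00842) and 1.05 ± 0.23 (adjusted p = 0.00280), or 1.96-fold and 2.07-fold. ITGB1 was 0.47 ± 0.20 higher (adjusted p = 0.175) and did not pass. Thus 2 of 8 genes were called, beside 6.20% of all genes, and the 5 genes not yet named had log2FC values from -0.38 to 0.79. The median over the 8 genes was 0.30 and that over all genes -0.03. Of 6 epithelial markers, SFN moved with EGFhigh as well (log2FC 1.67 ± 0.35, adjusted p = 0.00173), and the other 5 and both fibroblast markers tested were not called. Their part in the result was not tested. In bulk samples, fewer cells with a transcript and less of it per cell cannot be told apart. Without untreated replicate 3, ITGA2 no longer passed (0.77, adjusted p = 0.0921).

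None of the other treatments left a called member at 72 h. EGFlow against untreated cells gave log2FC values of the 8 genes from -0.36 to 0.12, EpEX against Fc from -0.41 to 0.19, and EGFhigh + EpEX against Fc from -0.50 to 0.19. In each of these 3 comparisons edgeR called no gene at all (439, 554, and 601 genes at an unadjusted p under 0.05) and DESeq2 called 0, 2, and 0 genes, none of them a member. The difference between the doses was tested directly. ITGA2 was 1.29 ± 0.22 (adjusted p = 0.000216) and ITGA3 0.93 ± 0.21 (adjusted p = 0.00589) higher under EGFhigh than under EGFlow, and EGFlow libraries had only 180 to 257 CPM of ITGA2 and 106 to 134 CPM of ITGA3. Here 2 of 8 members passed beside 3.73% of all genes, and no single library decided these calls. ITGB1 was 0.60 ± 0.19 higher (adjusted p = 0.0634) and passed with the replicate number as a block (0.55, adjusted p = 0.0477) or with DESeq2 (0.61, adjusted p = 0.0200), and ITGA5 was 0.85 ± 0.41 higher (adjusted p = 0.303).

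Addition of EpEX to EGFhigh went with lower levels of the same subunits at 72 h. In EGFhigh + EpEX libraries, ITGA2 had 205, 213, and 306 CPM and ITGA3 83.9, 108, and 137 CPM, all below the EGFhigh libraries. The log2FC against EGFhigh was -1.10 ± 0.24 for ITGA2 (adjusted p = 0.00454) and -1.03 ± 0.23 for ITGA3 (adjusted p = 0.00571), and ITGB1 was at -0.51 ± 0.20 (adjusted p = 0.173). This made 2 of 8 members, beside 3.58% of all genes. SFN, the epithelial marker called under EGFhigh against untreated cells, fell here too (log2FC -1.41 ± 0.35, adjusted p = 0.0125). Its part in the result was not tested, and the other epithelial markers are not described for this comparison. The 3 comparisons of EGFhigh at 72 h, against untreated cells, EGFlow, and EGFhigh + EpEX, all used the same 3 EGFhigh libraries. Without EGFhigh + EpEX replicate 2 neither gene passed (-0.99, adjusted p = 0.0569 for ITGA2 and -0.87, adjusted p = 0.0881 for ITGA3), and ITGA3 did not in a fit of these 6 libraries alone (adjusted p = 0.0546).

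No member was called over time in untreated Kyse30 cells. There, ITGB8 was 0.91 ± 0.37 higher at 72 h than at 6 h (27.1, 32.1, and 50.9 CPM to 58.9, 72.9, and 76.1 CPM), which did not pass (adjusted p = 0.246), and none of 8 genes was called beside 1.55% of all genes. Values at 6 h against 0 h ranged from -0.17 to 0.48, and Fc against untreated cells gave -0.47 to 0.39 at 6 h and -0.14 to 0.28 at 72 h. These 3 comparisons had no called gene by edgeR or DESeq2 (355, 435, and 439 at an unadjusted p under 0.05). Whether the response to EGFhigh differed between 72 and 6 h was tested as an interaction. No member passed, beside 1.01% of all genes, and the differences lay between -0.68 and 0.60.

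FaDu cells were analyzed in replicates 3 and 4, so that each tested group had 2 libraries. After 6 h, ITGA2, ITGB1, and ITGB6 rose under both doses of EGF, and ITGB8 under EGFlow. ITGA2 had 28.7 and 33.9 CPM in untreated cells, 161 and 165 CPM under EGFlow, and 160 and 187 CPM under EGFhigh. This was 5.21-fold for EGFlow (log2FC 2.38 ± 0.24, adjusted p = 7.89e-06) and 5.54-fold for EGFhigh (2.47 ± 0.24, adjusted p = 6.99e-06). ITGB1 rose from 115 and 136 CPM to 263 and 286 CPM (1.13 ± 0.17, adjusted p = 0.000599) and to 235 and 251 CPM (0.95 ± 0.17, adjusted p = 0.00296). ITGB6, the epithelial partner of ITGAV, rose from 11.6 and 18.8 CPM to 36.4 and 49.3 CPM (1.49 ± 0.30, adjusted p = 0.00680) and to 35.3 and 41.9 CPM (1.34 ± 0.29, adjusted p = 0.0147).

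ITGB8, another partner of ITGAV, rose under EGFlow from 5.21 and 8.82 CPM to 18.5 and 26.1 CPM (1.67 ± 0.34, adjusted p = 0.00912). Under EGFhigh it was 1.16 ± 0.34 higher without passing (adjusted p = 0.0811). There it passed without a filter on low counts (adjusted p = 0.0446) and with the replicate number as a block (adjusted p = 0.0264). ITGA3 was 0.90 ± 0.29 (adjusted p = 0.106) and 1.02 ± 0.29 higher (adjusted p = 0.0675), and its call depended on the setting. ITGA3 passed for both doses with DESeq2 (adjusted p = 0.0374 and 0.0145) and without a filter on low counts (adjusted p = 0.000213 and 1.44e-05). It also passed for both doses with the replicate number as a block (adjusted p = 0.0230 and 0.0109). Without the filter its log2FC was 0.89 and 1.01, so the lower adjusted p did not come from a larger difference. ITGA3 also passed for EGFlow in a fit of the compared groups alone (adjusted p = 0.0348). For EGFhigh it passed with untreated and Fc libraries together as control (adjusted p = 0.0469). Its untreated libraries differed by themselves, with 119 CPM in replicate 3 and 218 CPM in replicate 4, against 313 to 348 CPM in the 4 libraries with EGF. In all, 4 of 8 members were called for EGFlow beside 3.45% of 16022 genes and 3 of 8 for EGFhigh beside 3.06%, and both used the same untreated libraries. The median log2FC of the members was 1.01 and 0.98, compared with -0.02 and -0.01 over all genes. The epithelial marker SFN, followed here because it was called in Kyse30 at 72 h, rose under EGFhigh as well (1.66 ± 0.31, adjusted p = 0.00550). Its part was not tested, and the other epithelial markers are not described for this comparison.

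**Figure D3:**
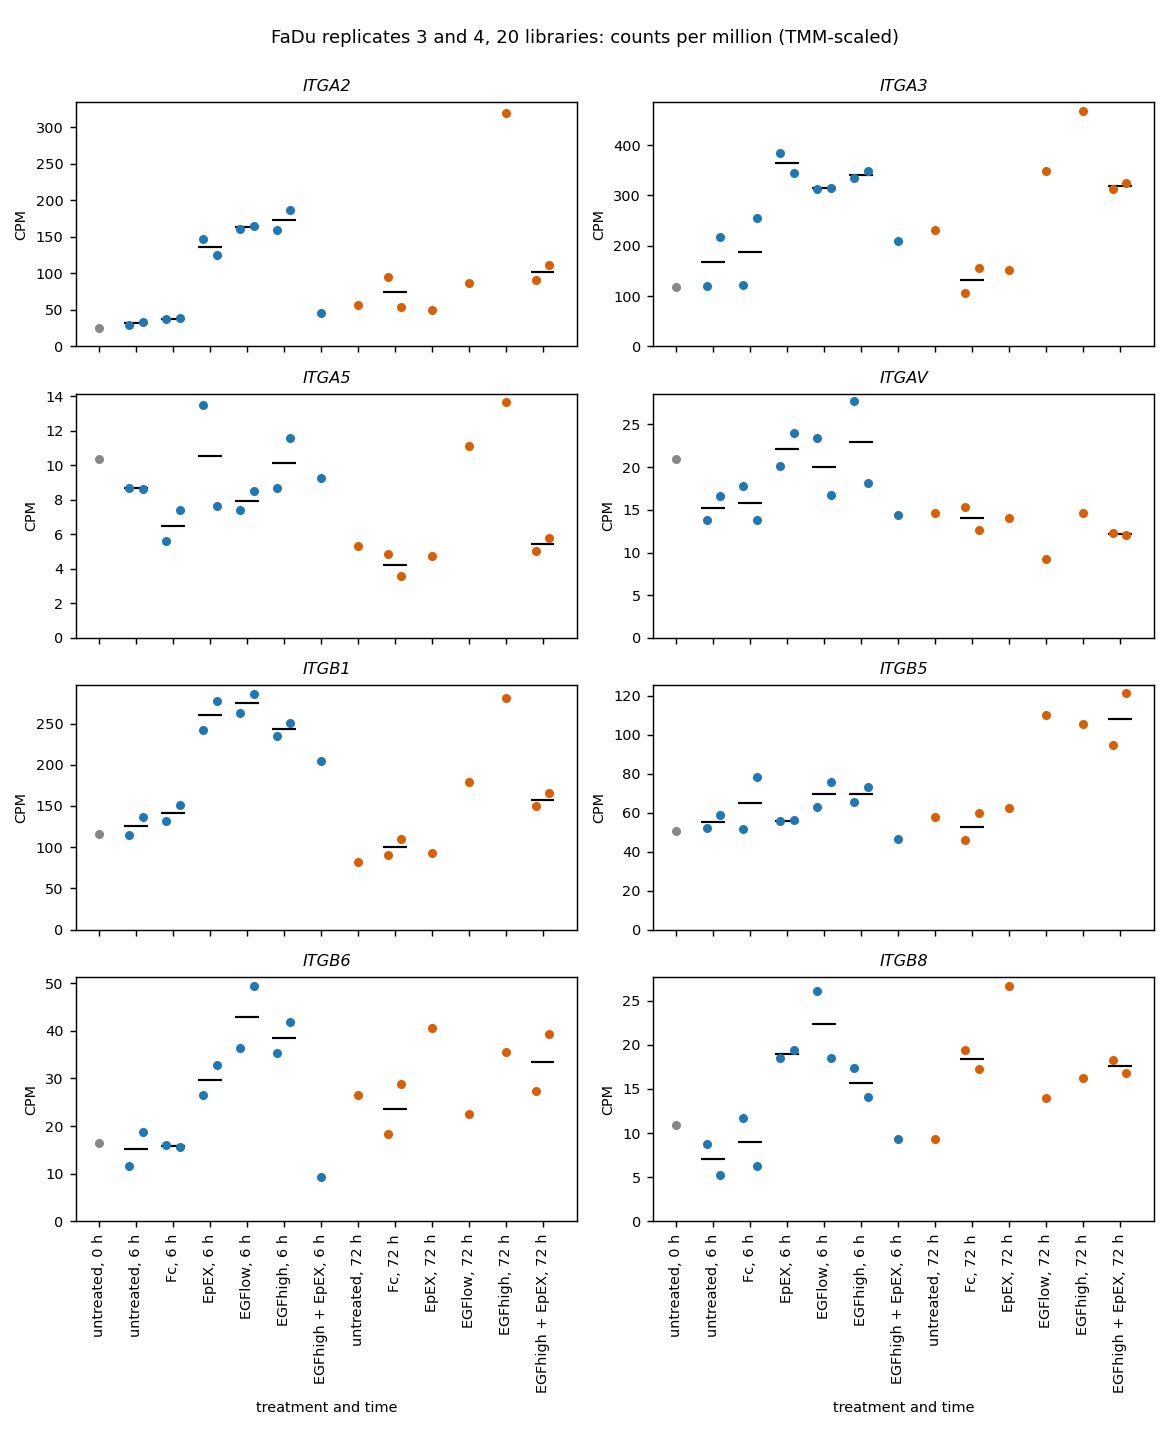
Levels of the 8 integrin genes in FaDu replicates 3 and 4 in CPM (vertical axes, from 0) for each treatment and time (horizontal axis), with 1 point for each of 20 libraries, grey at 0 h, blue at 6 h, and orange at 72 h, and a black line at the mean of 2 libraries. At 6 h, ITGA2 lay at 125 to 187 CPM under EpEX alone or EGF alone and at 28.7 to 38.8 CPM in the untreated and Fc libraries. The single EGFhigh + EpEX library of 6 h lay below that upper range. ITGA2 reached 320 CPM in the single EGFhigh library of 72 h.

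EpEX alone had a called effect in FaDu cells. ITGA2 had 125 and 147 CPM against 36.7 and 38.8 CPM under Fc (log2FC 1.85 ± 0.23, adjusted p = 9.93e-05), and ITGB1 had 242 and 277 CPM against 132 and 151 CPM (0.88 ± 0.17, adjusted p = 0.00475). ITGA3, ITGB6, and ITGB8 were 0.95 ± 0.29 (adjusted p = 0.0842), 0.90 ± 0.29 (adjusted p = 0.119), and 1.09 ± 0.34 higher (adjusted p = 0.0960) and did not pass. ITGA3 passed with DESeq2 (adjusted p = 0.0196) and without a filter (adjusted p = 6.05e-05, at an unchanged log2FC of 0.95). All 3 passed with untreated and Fc libraries together as control (adjusted p = 0.0221, 0.0194, and 0.0172). All 3 also passed with the replicate number as a block (adjusted p = 0.0137, 0.0300, and 0.0283). ITGB1 was lost in a fit of the compared groups alone (adjusted p = 0.0763). These were 2 of 8 called members beside 3.50% of all genes. Fc against untreated cells at 6 h gave values from -0.41 to 0.35 and no called gene by either tool (275 at an unadjusted p under 0.05).

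Part of the FaDu calls was lost when a single library was left out, which left a single library in its group. ITGA2 remained called under EGFlow, EGFhigh, and EpEX whichever library was left out. ITGB1 was lost for EGFhigh without untreated replicate 3 (0.83, adjusted p = 0.0936) and for EpEX without Fc replicate 3 (0.79, adjusted p = 0.0763) or EpEX replicate 4 (0.78, adjusted p = 0.0528). ITGB6 was lost without untreated replicate 3 (adjusted p = 0.156 for EGFlow and 0.260 for EGFhigh), EGFlow replicate 4 (adjusted p = 0.0933), or EGFhigh replicate 4 (adjusted p = 0.108). ITGB8 was lost for EGFlow without EGFlow replicate 3 (adjusted p = 0.0710) or untreated replicate 4 (adjusted p = 0.134). In turn, ITGA3 was called for EGFlow and EGFhigh without untreated replicate 4 (1.40, adjusted p = 0.0432, and 1.52, adjusted p = 0.0271) and for EpEX without Fc replicate 4 (1.58, adjusted p = 0.00874). With all 41 FaDu libraries, replicates 1 and 2 included, no member and no other gene was called in any FaDu comparison.

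At 72 h, FaDu cells with EGFhigh + EpEX had higher ITGA3 and ITGB5 than with Fc. ITGA3 had 312 and 325 CPM against 107 and 156 CPM (log2FC 1.28 ± 0.29, adjusted p = 0.0450), and ITGB5, a partner of ITGAV in vitronectin binding, had 94.7 and 122 CPM against 46.1 and 59.6 CPM (1.03 ± 0.22, adjusted p = 0.0286). ITGB1 was 0.65 ± 0.17 higher and did not pass (adjusted p = 0.0946). It passed with DESeq2 (adjusted p = 0.0137), with the replicate number as a block (adjusted p = 0.0169), and with untreated and Fc libraries together as control (adjusted p = 0.0145). With the single untreated library as control, ITGA3 was at 0.46 (adjusted p = 0.705) and ITGB5 at 0.91 (adjusted p = 0.167), and neither passed. With both controls together ITGA3 was at 0.95 (adjusted p = 0.134). Here 2 of 8 members were called beside 0.818% of all genes. Both calls were lost whichever of the 4 libraries was left out. Each such fit left a single library in a group and called fewer genes in all. For ITGA3 the log2FC was 1.03 without Fc replicate 3 and 1.58 without Fc replicate 4. It was 1.31 without EGFhigh + EpEX replicate 3 and 1.25 without replicate 4. For ITGB5 the values were 0.86, 1.23, 1.203, and 0.84 in the same order. In Fc cells ITGA2 was higher at 72 h (53.7 and 95.5 CPM) than at 6 h (0.98 ± 0.23, adjusted p = 0.0230), as 1 of 8 members beside 2.88% of all genes. It was lost without Fc replicate 3 of 72 h (0.51, adjusted p = 0.391), Fc replicate 3 of 6 h (0.94, adjusted p = 0.168), or Fc replicate 4 of 6 h (1.02, adjusted p = 0.0954), and in a fit of the compared groups alone (0.98, adjusted p = 0.0811). ITGB1 (-0.49 ± 0.17, adjusted p = 0.143) and ITGB8 (1.04 ± 0.34, adjusted p = 0.120) did not pass. With the replicate number as a block, ITGB8 passed (1.07, adjusted p = 0.0407).

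Several FaDu conditions had 1 library in replicates 3 and 4, and their values have no replicate check. In the EGFhigh library of 72 h, ITGA2 was at 320 CPM, ITGA3 at 468 CPM, and ITGB1 at 281 CPM. The untreated library of 72 h had 57.2 CPM, 232 CPM, and 82.0 CPM of these genes, the EGFlow library 87.3 CPM, 349 CPM, and 179 CPM, and the EpEX library 50.2 CPM, 152 CPM, and 92.8 CPM. In the single EGFhigh + EpEX library of 6 h, ITGA2 was at 46.1 CPM and ITGB6 at 9.37 CPM, both below every EGF library of 6 h, whereas ITGB1 was at 205 CPM and above the untreated and Fc libraries. Untreated cells at 0 h had 25.5 CPM of ITGA2, 119 CPM of ITGA3, and 116 CPM of ITGB1. Over all 20 libraries, ITGA5 lay at 3.58 to 13.6 CPM, ITGAV at 9.25 to 27.7 CPM, ITGB5 at 46.1 to 122 CPM, ITGB6 at 9.37 to 49.3 CPM, and ITGB8 at 5.21 to 26.6 CPM.

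The cell lines were compared in untreated cells at 6 h in a joint fit over both lines. ITGA2 had 224, 248, and 353 CPM in Kyse30 and 29.3 and 34.3 CPM in FaDu cells on this joint scale (8.64-fold higher in Kyse30, log2FC 3.11 ± 0.30, adjusted p = 6.39e-12). The ITGAV group was also higher in Kyse30, with log2FC values of 1.796 ± 0.29 for ITGAV (adjusted p = 3.29e-06), 1.38 ± 0.30 for ITGB5 (adjusted p = 0.00044), 2.20 ± 0.33 for ITGB6 (adjusted p = 3.98e-07), and 2.35 ± 0.44 for ITGB8 (adjusted p = 3.88e-05). ITGB1 was lower in Kyse30 (76.1 to 93.8 CPM against 118 and 138 CPM, -0.60 ± 0.22, adjusted p = 0.0373). The call of ITGB1 was lost without Kyse30 untreated replicate 1 (adjusted p = 0.0808) or 4 (0.125) or FaDu untreated replicate 3 (0.0719) or 4 (0.259), and also without a filter on low counts (-0.57, adjusted p = 0.154). ITGA3 and ITGA5 did not pass. Hence, 6 of 8 members differed, beside 22.4% of all 19634 genes. Each line is a single tumor line, so differences between lines cannot be told apart from differences between their cultures and library sets.

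**Figure D4:**
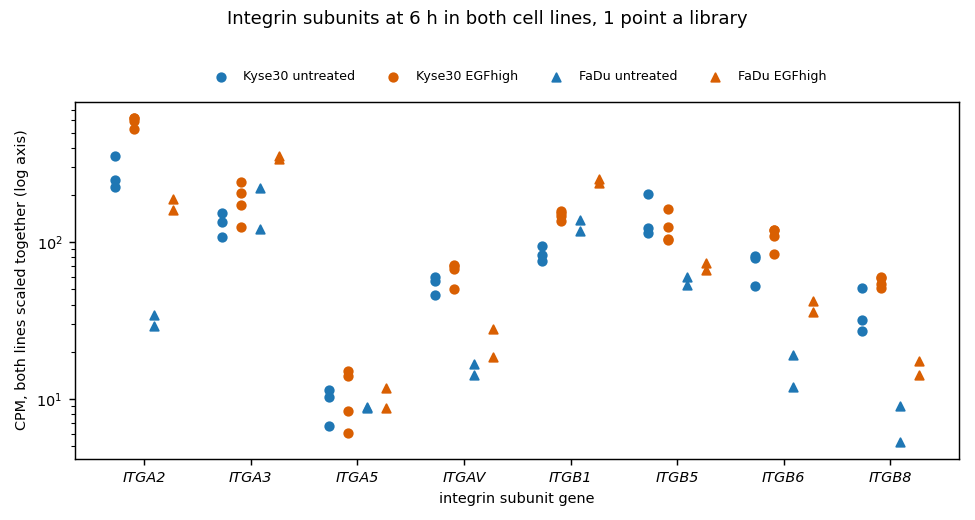
Levels of the 8 integrin genes at 6 h in untreated and EGFhigh cells of both lines, in CPM scaled over both lines together (vertical log axis), with 1 point a library. Untreated Kyse30 libraries lay at 224 to 353 CPM of ITGA2 and untreated FaDu libraries at 29.3 and 34.3 CPM, and EGFhigh libraries at 528 to 621 CPM and 161 to 189 CPM.

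The response of ITGA2 to EGFhigh at 6 h was smaller in Kyse30 than in FaDu cells by 1.36 ± 0.37 on the log2 scale, but this difference did not pass over all genes (unadjusted p = 0.000507, adjusted p = 0.249). It passed with DESeq2 (adjusted p = 0.0483) and without a filter on low counts (adjusted p = 0.0259). None of 8 members was called beside 0.0611% of all genes, and the differences of the other 7 lay between -0.73 and 0.00.

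Of the hemidesmosome subunits, ITGA6 rose by 0.65 ± 0.16 under EGFhigh at 6 h in Kyse30 (adjusted p = 0.0198), when ITGB4 was at -0.25 ± 0.28 (adjusted p = 0.743), whereas at 72 h ITGB4 rose by 2.02 ± 0.31 (adjusted p = 2.73e-05) with ITGA6 at -0.02 ± 0.17. Under EGFhigh + EpEX against EGFhigh at 72 h, ITGB4 fell by 1.57 on the log2 scale (SE 0.30, adjusted p = 0.00121).

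Genes that act next to these integrins were read from lists. Of 16 other integrin genes only 4 could be tested in Kyse30. None was called under EGFhigh at 6 or 72 h, beside 2.55% and 6.20% of all genes. Of the 16 genes for matrix ligands, 14 were tested and 6 fell under EGFhigh at 72 h, when 6.20% of all genes were called. They included FN1, the fibronectin gene (log2FC -4.80 ± 0.69, adjusted p = 1.04e-05), CCN2 (-3.41 ± 0.60, adjusted p = 0.000215) and CCN1 (-2.31 ± 0.71, adjusted p = 0.0407), which encode matricellular ligands, and SPP1, the gene of osteopontin (-2.23 ± 0.70, adjusted p = 0.0455), among others, while none rose. The list median was -1.003 compared with -0.03 over all genes. Under EGFhigh + EpEX against EGFhigh, FN1 (3.44 ± 0.65, adjusted p = 0.000826), CCN2 (3.27 ± 0.60, adjusted p = 0.000650), and SPP1 (2.41 ± 0.70, adjusted p = 0.0422) rose. At 6 h of EGFhigh no matrix ligand was called in Kyse30, beside 2.55% of all genes. In FaDu cells THBS1 rose and LAMA5 fell among 12 tested, beside 3.06% of all genes called. Both were named after their values were seen.

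Among 29 genes for linker, signalling, and regulator proteins of integrin adhesions, 5 rose and none fell under EGFhigh at 72 h, beside 6.20% of all genes called. ZYX, which encodes the focal adhesion protein zyxin, was 1.00 ± 0.31 higher (adjusted p = 0.0438), VCL, which encodes vinculin, 0.85 ± 0.21 (adjusted p = 0.00776), and VASP, which promotes actin assembly, 0.77 ± 0.24 (adjusted p = 0.0430). At 6 h of EGFhigh, 4 of 29 rose in Kyse30 (2.55% of all genes called) and 7 of 29 in FaDu cells (3.06% of all genes called), with none lower, including VCL (1.18 ± 0.20, adjusted p = 0.000938, and 1.33 ± 0.16, adjusted p = 0.000101) and ZYX (1.78 ± 0.30, adjusted p = 0.00102, and 2.10 ± 0.21, adjusted p = 8.46e-06). The list median at 72 h was 0.23 in Kyse30, beside -0.03 over all genes. Of 8 surface partners of integrins and of the 3 tested genes of latent TGF-beta, none was called in Kyse30 at 6 or 72 h of EGFhigh. Members and lists had been chosen with results of these data known, so these counts describe the lists.

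The genes most like each member were sought over the 13 condition means in Kyse30 (Pearson's r of log2 CPM over 10241 genes with a mean of at least 5 CPM). The conditions share libraries and controls, so these values are descriptive. The genes named were picked as the highest of 10241 over only 13 means, a choice that by itself favors high values of r. ITGA2 was most like DCBLD2 (r = 0.976) and CDK5R1 (0.958), ITGA3 like CBL (0.966) and TUBB3 (0.963), and ITGB1 like GLIPR1 (0.965) and SDC4 (0.961). For the partners of ITGAV, ITGB5 was most like BIRC5 (0.927) and CDC20 (0.920), ITGB6 like ELOA (0.933) and TDG (0.929), and ITGB8 like DHRS7 (0.906) and THSD4 (0.904). ITGA5 was most like RRBP1 (0.914) and PLSCR3 (0.894), and ITGAV like SYDE2 (0.898) and NR1H3 (0.848). Among the members themselves, ITGA2 and ITGB1 were closest (r = 0.930, n = 13 conditions), followed by ITGA2 and ITGA3 (0.83) and ITGA3 and ITGB1 (0.796), while ITGB5 and ITGB8 were the most opposed (-0.586).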

How the data were processed

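Total RNA of 84 libraries was sequenced from the 3′ end of transcripts. The deposited files hold raw counts of reads per gene (58395 genes), made by the authors with STAR and HTSeq on GRCh38, with versions not given in the sources used here. Symbols came first from a list of gene names and otherwise from GENCODE 29, and 58275 identifiers had one. No pair of libraries had identical counts. Members and lists were chosen with earlier results of these data known. Counts of the 43 Kyse30 libraries, of the 20 libraries of FaDu replicates 3 and 4, and of both sets were fitted with edgeR 4.0.16 in R 4.3.3 (TMM scaling, filterByExpr with a minimum count of 10 and total of 15, quasi-likelihood test, Benjamini-Hochberg adjustment over all genes tested). A gene was called with an adjusted p up to 0.05 and a log2FC beyond 0.5 in either direction. Statistics are given for members that were called or had an unadjusted p under 0.05, and for other lists for up to 4 genes per direction called under EGFhigh at 72 h in Kyse30. One gene that this rule names is not reported here. Alternatives were DESeq2 1.42.0, other size factors, no filter, a replicate block, other controls, only the groups compared, all FaDu libraries, and leaving out each library with the genes and dispersion trend of the full fit. Scripts were tested on simulated data. Same-numbered libraries deviated together in every pair (r over 0.1) in 5 Kyse30 comparisons. Among them were EpEX and EGFhigh + EpEX against Fc at 6 h (lowest r 0.116 and 0.108) and EGFhigh against EGFlow at 72 h (lowest r 0.150). In FaDu cells r was 0.105 for Fc at 72 against 6 h and 0.146 for Fc against untreated cells at 6 h. A blocked value is given beside those results where it changed a call.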

Additional observations from a re-analysis of the deposited data

How the results depend on the processing

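The number of called members changed as follows. For Kyse30 EpEX against Fc at 6 h it was 0, but 1 with DESeq2, 1 without a filter, and 2 with untreated and Fc libraries together as control. For Kyse30 EGFhigh + EpEX against Fc at 6 h it was 1, but 2 with DESeq2, 2 with the replicate block, and 3 with both controls together. For EGFhigh + EpEX against EGFhigh at 72 h it was 2, but 1 in a fit of only the groups compared. In FaDu cells it rose for EGFhigh at 6 h from 3 to 5 without a filter and to 5 with the replicate block, and for EpEX at 6 h from 2 to 5 with the block, 5 with both controls, and 4 with untreated cells as control, but was 1 with only the groups compared. For EGFhigh + EpEX at 72 h it was 0 with untreated cells as control, and for Fc at 72 against 6 h it was 2 with the block and 0 with only the groups compared. The response of ITGA2 between lines gave 1 with DESeq2 and 1 without a filter. Changes by 1 member were 2 to 3 for Kyse30 EGFlow at 6 h without a filter, EGFhigh at 6 h with both controls, and EGFhigh against EGFlow at 72 h with DESeq2 or the block. In FaDu cells they were 4 to 5 for EGFlow at 6 h with DESeq2, no filter, the block, or only the groups compared, 3 to 4 for EGFhigh at 6 h with DESeq2 or both controls, 2 to 3 for EpEX at 6 h with DESeq2 or no filter, and 2 to 3 for EGFhigh + EpEX at 72 h with DESeq2 or the block. Between lines, 6 became 5 without a filter. With all 41 FaDu libraries it was 0 in each FaDu comparison, and log2FC values turned to -0.12 (ITGA2), -0.18 (ITGB1), and -0.28 (ITGB8) for EGFhigh at 6 h, to -0.15 (ITGB1), -0.36 (ITGB6), and -0.12 (ITGB8) for EpEX at 6 h, and to -0.39 (ITGB1) for EGFhigh + EpEX at 72 h. The cause was not tested.

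Leaving out each library gave 0 to 2 called members for Kyse30 EGFlow at 6 h, 1 to 2 for EGFhigh at 6 h, 1 to 2 for EGFhigh + EpEX at 6 h, 1 to 2 for EGFhigh at 72 h, 0 to 2 for EGFhigh + EpEX against EGFhigh at 72 h, and 2 in all cases for EGFhigh against EGFlow at 72 h. In FaDu cells the ranges were 3 to 4 for EGFlow, 1 to 4 for EGFhigh, 1 to 3 for EpEX, 0 in all cases for EGFhigh + EpEX at 72 h, and 0 to 1 for Fc over time. The lone library left in a group was assumed to vary like the other groups. Counts over all genes also moved: for Kyse30 EpEX at 6 h, 4 genes became 83 with DESeq2, 105 without a filter, and 48 with the block, for EGFhigh at 72 h 951 became 502 with only the groups compared, and for EGFlow at 6 h 230 became 413 with DESeq2 and 417 with the block. Over all pairs of conditions, compared here or not, same-numbered libraries had a mean correlation of deviations of 0.0633 in Kyse30 (217 pairs). It was 0.0713 in FaDu replicates 3 and 4 (42 pairs), where the 2 libraries of a group deviate equally and oppositely.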

Other observations

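FaDu replicates 1 and 2 entered only the fits with all 41 FaDu libraries, and their values are given in CPM scaled by total counts alone. Over these 21 libraries ITGA2 ranged from 6.02 to 412 CPM (median 31.6 CPM), ITGA3 from 9.31 to 323 CPM (median 52.3 CPM), and ITGB1 from 59.4 to 564 CPM (median 188 CPM). The medians of the 20 libraries of replicates 3 and 4 on the same scale were 91.5, 280.0, and 162 CPM. ITGB6 ranged from 0.502 to 335 CPM and ITGB8 from 0.455 to 79.8 CPM, compared with 9.14 to 47.3 CPM and 5.29 to 28.2 CPM in replicates 3 and 4. ITGB5 ranged from 67.0 to 749.7 CPM, ITGAV from 13.6 to 83.4 CPM, and ITGA5 from 0.609 to 99.0 CPM.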
